A study of Mus musculus with 71 samples.

Results

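The 9 long noncoding RNA genes described here are Malat1, Neat1, Meg3, Miat, Rian, Mirg, Snhg11, Snhg14 and Kcnq1ot1. They were chosen by name, with earlier results of these data known, out of 55416 gene identifiers in a count table of 71 mouse brain libraries. All 9 passed the low-count filter in each of the 3 brain regions. Long noncoding RNAs are transcripts that are not translated, and these 9 are known for staying largely in the nucleus. Malat1 gathers in nuclear speckles, the bodies that store splicing factors, and Neat1 is the scaffold on which paraspeckles are built. Meg3, Rian and Mirg are transcribed from the maternal copy of the Dlk1-Dio3 imprinted domain, Snhg14 and Kcnq1ot1 from the paternal copy of the Snrpn-Ube3a and Kcnq1 domains, and Miat and Snhg11 are abundant in neurons.

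The series measured the brain after a skin injury in C57BL/6J mice by bulk RNA sequencing of 100 bp single reads. Burn mice received a full-thickness burn of 7 to 8% of the body surface on the right flank, made by a 19 mm brass rod heated above 90 °C and held for 10 s. Excision mice had skin removed from the back around a 12 mm punch template, a wound that widened to the size of the burn, and sham mice were shaved and not injured. Mice of all 3 groups had isoflurane anaesthesia, shaving and buprenorphine at 0.1 mg/kg, followed by paracetamol at 1 mg/mL for 5 days, so the sham libraries carry these as well. Hippocampus has 10 burn, 10 excision and 9 sham libraries and frontal cortex has 10, 10 and 8, each split over batch 1 and batch 2 of the labels. Piriform cortex has 5, 4 and 5 in batch 3 alone, so there the region and the batch cannot be told apart. Their labels differ on the region: all 14 titles give frontal cortex, and the fields for tissue and source give piriform cortex. The fields were followed here, and every piriform value rests on that reading. The labels give no sex, age or time after injury and do not tie the regions to animals. The labels do not state outright that each library is a separate animal, and p-values then measure the spread between these samples.

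On GRCm38, with the GENCODE M21 annotation, Malat1 (ENSMUSG00000092341) is a single exon at chr19:5795690-5802672 on the minus strand. Neat1 (ENSMUSG00000092274) follows it at chr19:5824708-5845478 on the same strand. Meg3 (ENSMUSG00000021268) lies at chr12:109541001-109571726, Rian (ENSMUSG00000097451) at chr12:109603940-109661716 and Mirg (ENSMUSG00000097391) at chr12:109729764-109749460, all on the plus strand. Of annotated small nucleolar RNAs, 8 share exon bases with Rian, and of annotated microRNAs 9 share exon bases with Mirg, some of them by only 1 or 2 bases. Miat (ENSMUSG00000097767) is at chr5:112213228-112229395 on the minus strand. Snhg11 (ENSMUSG00000044349), a small nucleolar RNA host gene that this annotation types as protein coding, is at chr2:158375638-158386145 on the plus strand. Snhg14 (ENSMUSG00000100826) spans chr7:59307924-59975759 and runs antisense to Ube3a, and Kcnq1ot1 (ENSMUSG00000101609) spans chr7:143203458-143296549 and runs antisense to Kcnq1. Exons on the opposite strand overlap 24.3% of the exon length of Miat, 6.91% of Snhg14, 6.79% of Meg3, 6.49% of Malat1 and 1.202% of Kcnq1ot1. The strand setting of the counting is not given in the sources used here, so in those stretches reads of a gene and its antisense partner cannot be told apart.

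Start-site sequences are shown for Meg3 and Snhg11, whose levels followed each other most closely in these libraries, and for Rian, the neighbour of Meg3 whose level varied least. They are RefSeq windows of 300 bases on GRCm38.p6, from 250 bases before the annotated start to 50 bases after it, on the gene's own strand. Capitals mark TGACG on either strand, the core of the cAMP response element. The windows are chr12:109540746-109541045 for Meg3 on the plus strand, chr2:158375463-158375762 for Snhg11 on the plus strand and chr12:109603695-109603994 for Rian on the plus strand.
Meg3: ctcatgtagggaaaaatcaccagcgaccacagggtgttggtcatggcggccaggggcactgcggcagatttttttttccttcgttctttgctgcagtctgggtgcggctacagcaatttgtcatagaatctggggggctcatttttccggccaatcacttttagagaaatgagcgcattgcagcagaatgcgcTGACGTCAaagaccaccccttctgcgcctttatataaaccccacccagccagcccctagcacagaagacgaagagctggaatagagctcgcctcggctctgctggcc
Snhg11: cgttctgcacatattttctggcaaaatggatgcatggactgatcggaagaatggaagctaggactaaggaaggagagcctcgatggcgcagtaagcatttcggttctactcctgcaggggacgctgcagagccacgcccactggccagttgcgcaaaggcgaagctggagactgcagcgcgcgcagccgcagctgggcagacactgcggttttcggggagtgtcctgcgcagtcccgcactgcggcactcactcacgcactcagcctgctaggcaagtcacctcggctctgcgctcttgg
Rian: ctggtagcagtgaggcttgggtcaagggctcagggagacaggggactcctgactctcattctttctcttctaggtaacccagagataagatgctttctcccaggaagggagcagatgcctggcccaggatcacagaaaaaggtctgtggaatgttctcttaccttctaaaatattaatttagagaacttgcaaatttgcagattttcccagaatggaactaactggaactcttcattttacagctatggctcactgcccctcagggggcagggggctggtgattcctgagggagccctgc
RefSeq gives Meg3 a second window, further downstream at chr12:109545148-109545447 and not printed, which held none of these letters and 1 CpG. The Meg3 window printed here held the whole element TGACGTCA, in which TGACG occurs on both strands and overlaps itself, and 2 copies of TATAAA, counted over both strands. Snhg11 and Rian held neither. TGACG occurred in 20.8% of all 32851 RefSeq windows of this length, TGACGTCA in 1.79% and TATAAA in 13.6%. The Snhg11 window had 21 CpG dinucleotides and 60.0% G and C, Meg3 had 13 and 53.7%, and Rian had 0 CpG and 49.3%, against medians of 7 CpG and 52.7% over all windows. So the closest pair shared none of these letters, which describes the windows and says nothing on what controls the genes. RefSeq windows were found for 8 of the 9 genes.

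The libraries held 6652468 to 87775812 counts each, and the 4 thinnest, all of hippocampus batch 1, held at most 7339556. Mitochondrially encoded genes took 1.98 to 10.4% of the counts and the 9 long noncoding RNAs together 0.0575 to 0.765%. Of 135 pairs of libraries of the same region, batch and treatment, 0 held identical values. The treatment field was used throughout, and the titles of 4 libraries (frontal cortex burn libraries 7 and 8 and excision library 7, piriform sham library 2) name another treatment. Without them the number of the 9 that passed stayed at 0 in each of the 9 treatment contrasts and at 3 between hippocampus and frontal cortex, and the median log2 change of burn against sham in frontal cortex was -0.30. C1ql2 and Prox1, markers of the dentate gyrus chosen after the data were seen, stood at 53.6 to 163 and 26.1 to 80.7 CPM (a gene's count scaled to a common library total) in hippocampus and at 0.471 to 1.93 and 3.88 to 11.9 CPM in frontal cortex. Piriform sham library 1 stood apart, with 102 CPM of C1ql2 and 44.4 CPM of Prox1 against piriform medians of 1.21 and 7.17 CPM. Summed neuron markers were 5454 CPM or more in every library. Hippocampal sham library 3, of batch 1, held RNA of all 6 neutrophil markers, such as S100a9, a calcium-binding protein gene, with 1737 counts (86.4 CPM of the unscaled total), against at most 0.387 CPM in any other library. The other 5 (S100a8, Ngp, Camp, Ltf and Retnlg) stood there at 8.55 to 39.6 CPM and elsewhere at 0.314 CPM or less. The edgeR counts for burn against sham in hippocampus, and for its change between batches, are given without this library as well. Other hippocampal values, such as DESeq2 calls, gene lists and correlations with library measures, are given only with it. In bulk tissue, fewer cells of a type and less RNA per cell cannot be told apart.

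Meg3 was the most abundant of the 9 by CPM, and all levels below are CPM after scaling of library sizes. It ran from 108 through a median of 1477 to 3764 CPM over the 71 libraries. Snhg11 ran from 59.0 through 723 to 1949 CPM, a 33.0-fold range, and Miat from 10.1 through 172 to 538 CPM, a 53.2-fold range. Rian, which hosts box C/D small nucleolar RNAs, varied least, at 274 through 392 to 541 CPM, a 1.98-fold range. Malat1 ran from 15.6 through 184 to 437 CPM and Snhg14 from 13.3 through 73.3 to 191 CPM. Neat1 ran from 12.3 through 39.5 to 88.7 CPM, Mirg from 2.11 through 16.2 to 40.6 CPM and Kcnq1ot1 from 1.68 through 9.33 to 22.1 CPM. The 28 Kcnq1ot1 counts of hippocampal sham library 1 and the 1221 of piriform sham library 1 show how far counting precision differed for this gene. Per kilobase of exon the order changed: Snhg11 (median 84.9 CPM per kb) and Meg3 (81.7) stood highest, then Malat1 (26.3), Rian (21.5) and Miat (18.5). Snhg14 (2.81), Mirg (2.23) and Neat1 (1.90) were lower, and Kcnq1ot1, annotated as 1 exon of 93092 bases, was lowest at 0.100 CPM per kb. Neighbours such as Snhg11 and Meg3, or Mirg and Neat1, had ranges over libraries that overlapped almost fully.

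**Figure D1:**
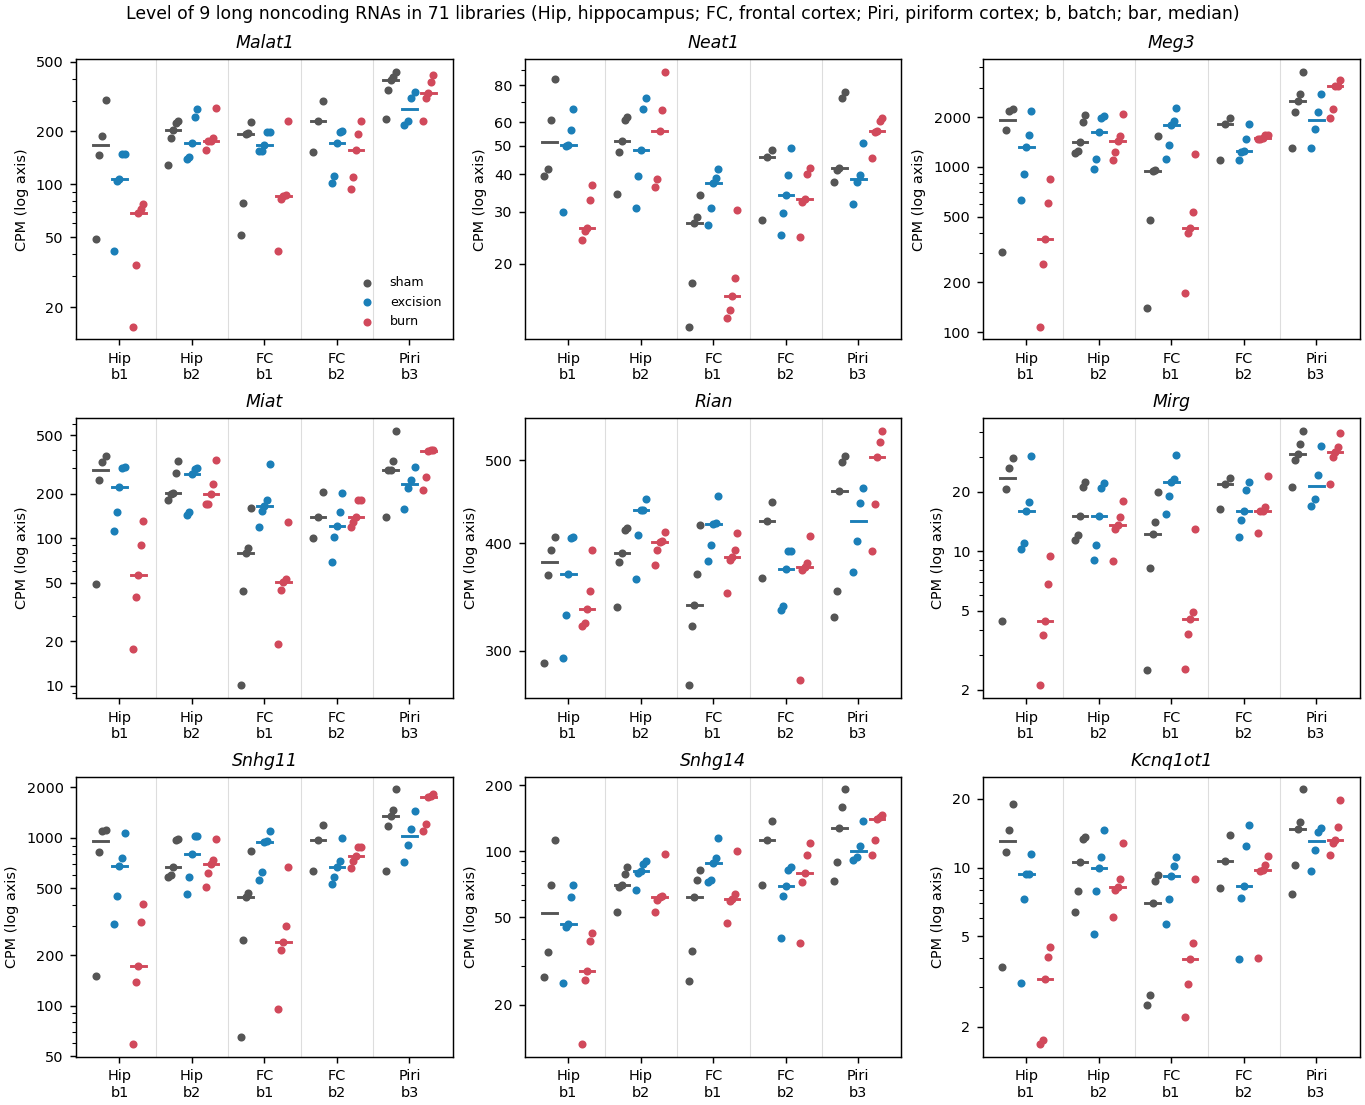
Level of each long noncoding RNA in the 71 libraries, as CPM on a log axis, by region and batch along the horizontal axis and by treatment in colour, with bars at the group medians (Hip, hippocampus; FC, frontal cortex; Piri, piriform cortex; b, batch). Meg3 runs from 108 to 2244 CPM in hippocampus batch 1 and from 969 to 2078 CPM in hippocampus batch 2. The batches are closer in spread for Rian, for Neat1 in hippocampus (SD of log2 CPM 0.56 and 0.44) and for Snhg14 in frontal cortex (0.57 and 0.53).

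The piriform libraries held the highest mean level of each of the 9, with the reservation that this region is also a batch. For Neat1 this rested on piriform sham library 1: its mean was 50.7 ± 13.5 CPM (SD, n = 14) with that library, 48.7 ± 11.8 (n = 13) without it and 49.1 ± 17.2 (n = 29) in hippocampus. The other 8 were highest in piriform cortex without it too. Meg3 averaged 2432 ± 742 CPM (SD, n = 14) in piriform cortex, 1312 ± 632 (n = 29) in hippocampus and 1235 ± 564 (n = 28) in frontal cortex. Malat1 averaged 327 ± 75.9, 152 ± 74.6 and 157 ± 63.5 CPM in the same order, and Snhg11 1319 ± 413, 647 ± 314 and 643 ± 302 CPM. The hippocampal and cortical means of these 3 genes lay well within 1 SD of each other. Kcnq1ot1 averaged 13.8 ± 3.83 CPM in piriform cortex, 8.59 ± 4.30 in hippocampus and 7.91 ± 3.55 in frontal cortex, and Mirg 29.0 ± 7.46, 14.5 ± 7.45 and 15.3 ± 7.21 CPM. Rian differed least, at 445 ± 66.9, 380 ± 41.9 and 379 ± 43.8 CPM.

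Between hippocampus and frontal cortex, where both batches exist in both regions, Neat1 and Miat were higher in hippocampus and Snhg14 was higher in frontal cortex. Neat1 averaged 49.1 ± 17.2 CPM in hippocampus and 30.7 ± 10.6 CPM in frontal cortex, a log2 difference of 0.66 (SE 0.12, adjusted p = 4.37e-06, edgeR quasi-likelihood test). Miat, which forms its own nuclear domains in neurons, averaged 203 ± 98.5 against 124 ± 66.9 CPM (log2 difference 0.65, SE 0.22, edgeR adjusted p = 0.00824). Snhg14, the transcript whose antisense part silences the paternal Ube3a copy in neurons, averaged 59.8 ± 24.3 against 75.3 ± 25.99 CPM (log2 difference -0.43, SE 0.14, edgeR adjusted p = 0.00796). The ranges of hippocampal and cortical libraries overlapped for all 3. These 3 of 9 compare with 61.4% of all 21610 genes that passed in this comparison. The other 6 had log2 differences from -0.18 to 0.04. Within batch 1 alone Miat did not pass (0.61, edgeR adjusted p = 0.134), while Rian did, as lower in hippocampus (-0.16, adjusted p = 0.0367), and 3 of 9 passed there against 57.2% of all genes. Snhg14 did not pass within batch 2 alone (-0.17, adjusted p = 0.362) or among sham libraries alone (-0.20, adjusted p = 0.595).

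In the same comparison 28.3% of all genes were higher in hippocampus and 33.1% lower, and the imprinted neighbours of these RNAs were called at shares near that background. In the Snrpn-Ube3a list 2 of 9 tested genes were higher in hippocampus and 3 lower. Gabra5, a GABA-A receptor subunit, was higher by a log2 difference of 1.10, and Snrpn, the imprinted splicing-protein gene, by 0.48, while Gabrg3 was lower by a log2 difference of -0.98. In the Kcnq1 list 3 of 13 were higher and 4 lower, among them Kcnq1 itself at -1.44 while Kcnq1ot1 stood at 0.04. In the Dlk1-Dio3 list 2 of 7 were higher and 2 lower, led by Dio3, which inactivates thyroid hormone, at 1.45, while Meg3, Rian and Mirg stood between -0.11 and 0.02. All 6 choroid plexus markers were higher in hippocampus (median log2 difference 3.99), and their part in these differences was not tested.

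Burn against sham in hippocampus asks whether the distant skin injury moved these RNAs. All 9 were lower on average after burn, by log2 changes of -1.03 (Kcnq1ot1) to -0.03 (Rian), and 0 of 9 passed in edgeR's quasi-likelihood test, against 1.03% of all 19574 genes tested. The median change was -0.89 for the 9 and 0.01 for all genes. At an unadjusted p under 0.05 in edgeR, 7 of 9 were lower, against 10.1% of all genes lower. DESeq2 called 1, Kcnq1ot1 (-1.06, DESeq2 adjusted p = 0.0426), but it called 629 genes at large, against 202 in edgeR. The 9 were chosen with earlier results of these data known and rise and fall together between libraries. Counts out of 9, here and below, are therefore descriptions and not independent events. The values by library are given by batch.

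In hippocampus batch 1, Kcnq1ot1, which silences neighbouring genes on the paternal chromosome, stood at 3.66, 14.6, 11.7 and 19.0 CPM in the 4 sham libraries. It stood at 3.23, 4.48, 1.68, 1.76 and 4.04 CPM in the 5 burn libraries. Every burn library was below 3 of the 4 sham libraries, and only sham library 1 fell among them. In batch 2 Kcnq1ot1 stood at 13.4, 7.89, 13.6, 10.54 and 6.36 CPM in sham and at 6.07, 8.21, 12.8, 8.88 and 8.00 CPM in burn libraries, and the groups overlapped. Its change was -1.03 over both batches (SE 0.31, edgeR adjusted p = 0.0878), -2.14 in batch 1 alone (adjusted p = 0.0134) and -0.25 in batch 2 alone.

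Meg3, the growth-restraining RNA of the Dlk1-Dio3 domain, stood in batch 1 at 304, 2195, 1670 and 2244 CPM in sham and at 840, 608, 108, 257 and 369 CPM in burn libraries. Again sham library 1 was the only sham value within the burn range. In batch 2 it stood at 2059, 1207, 1866, 1406 and 1247 CPM in sham and at 1099, 1533, 2078, 1224 and 1433 CPM in burn, with full overlap. The change was -0.89 over both batches (SE 0.36, edgeR adjusted p = 0.191) and -1.92 in batch 1 (adjusted p = 0.0469).

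Mirg, the host of a large microRNA cluster, stood in batch 1 at 4.45, 29.5, 20.6 and 26.4 CPM in sham and at 9.51, 6.84, 2.11, 3.77 and 4.44 CPM in burn libraries. Neat1, the paraspeckle scaffold, stood at 39.5, 61.0, 41.6 and 84.0 CPM in sham and at 25.9, 36.8, 24.0, 32.8 and 26.5 CPM in burn libraries. Neat1 was the gene among these 9 whose batch 1 sham and burn values did not overlap. The share of all genes without overlap was not computed. In this batch 7.09% of all genes passed, which is another measure. Malat1, the speckle RNA, stood at 48.9, 188, 147 and 301 CPM in sham and at 68.9, 77.7, 15.6, 34.8 and 72.8 CPM in burn libraries. Rian stood at 290.5, 407, 394 and 368 CPM in sham and at 393, 353, 324, 320.4 and 336 CPM in burn libraries, where the groups overlapped.

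In batch 1 alone 7 of 9 passed as lower, against 5.21% of all genes, with a median log2 change of -1.91 over the 9. These were Malat1, Neat1, Meg3, Miat, Mirg, Snhg11 and Kcnq1ot1, while Snhg14 (-1.11, edgeR adjusted p = 0.1) and Rian (-0.12, adjusted p = 0.576) did not pass. Without sham library 3, which carried the neutrophil markers, 3 of 9 passed in batch 1 alone, against 6.02% of all genes. These were Neat1 (-1.15), Mirg (-2.02) and Kcnq1ot1 (-2.19), and the median over the 9 was -1.92. Without sham library 1, 8 of 9 passed in batch 1 alone, against 15.3% of all genes. Both fits were chosen after the data were seen and leave 3 sham libraries. In batch 2 alone 0 of 9 passed, against 0.156% of all genes in edgeR, 0 had an unadjusted p under 0.05, against 7.92%, and the changes ran from -0.27 to 0.14. The difference between the batches itself, as an interaction, was higher in batch 2 for all 9 (median 1.73), but 0 of 9 passed in edgeR, against 0.046% of all genes. At an unadjusted p under 0.05, 8 of 9 differed, against 16.2% of all genes, led by Kcnq1ot1 at 1.90 (adjusted p = 0.097). Without sham library 1, which had 7339556 counts and was the lowest of the 4 batch 1 sham libraries for all 9 genes, 6 of 9 passed in this interaction, against 4.76% of all genes, with Kcnq1ot1 at 2.16 (adjusted p = 0.0136). Without sham library 7, 1 passed (Kcnq1ot1, adjusted p = 0.0496), against 1.94% of all genes, and without sham library 3, 0 passed, against 0.0558%.

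Kcnq1ot1 passed in the burn against sham fit over both batches without sham library 1 (-1.11, edgeR adjusted p = 0.0461, against 2.25% of all genes passed) and without sham library 9 (-1.15, adjusted p = 0.0408, against 2.62%). Without burn library 8, Kcnq1ot1 (-1.201, adjusted p = 0.0241) and Mirg (-1.11, adjusted p = 0.0441) both passed, against 3.84% of all genes. Without sham library 3, 0 of 9 passed, against 0.543%, and Kcnq1ot1 had an edgeR adjusted p = 0.122. Choroid plexus markers had unlike medians in the 3 treatment groups of hippocampus, but their ranges overlapped widely. The 6 summed to 39.6 to 6737 CPM in burn (median 1666), 22.4 to 3029 in excision (52.6) and 40.6 to 5156 in sham (163), with none at 0. All 6 were higher after burn, 0 passed, and their part in the RNA changes was not tested. Summed neuron markers ran from 5857 to 6907 CPM in burn and from 5454 to 6987 CPM in sham libraries.

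**Figure D2:**
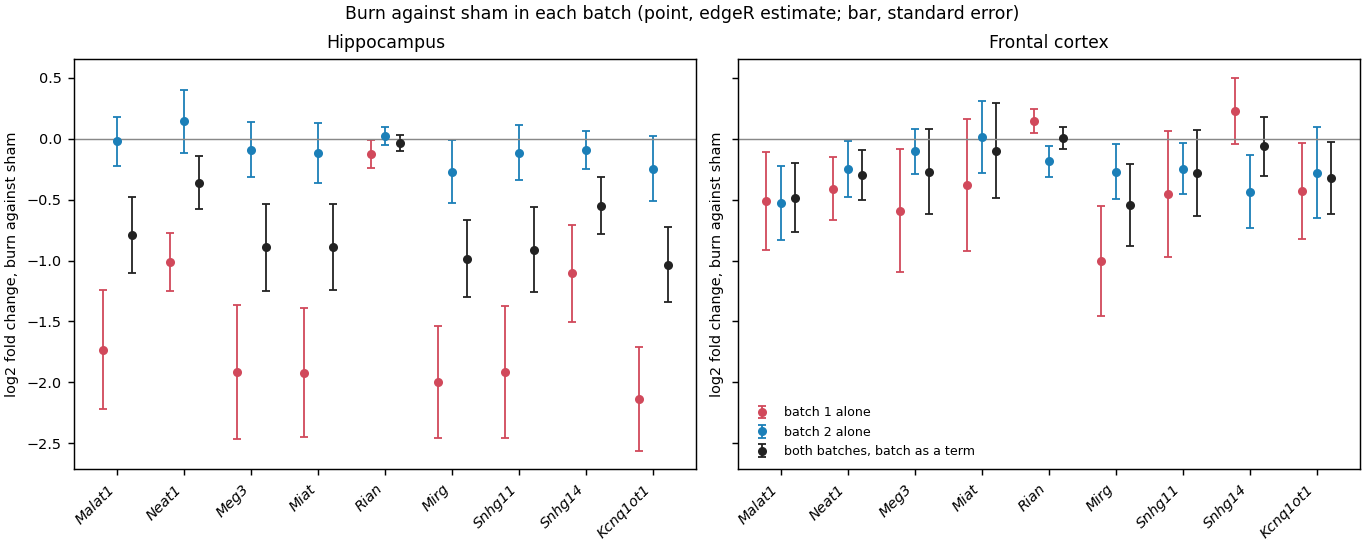
Log2 change of burn against sham for each RNA in hippocampus (left) and frontal cortex (right), in batch 1 alone (red), batch 2 alone (blue) and both batches with batch as a term (black), as edgeR estimates with standard errors. The hippocampal batch 1 estimates reach -2.14 while those of batch 2 lie between -0.27 and 0.14, and the cortical estimates of both batches overlap for most genes.

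The hippocampal excision libraries lay between the others in batch 1. Meg3 stood there at 1553, 633, 2169, 1323 and 903 CPM, overlapping both burn and sham, and Kcnq1ot1 at 9.33, 3.11, 11.5, 9.38 and 7.25 CPM. Excision against sham gave 0 of 9 passed in edgeR, against 0% of all genes, 0 at an unadjusted p under 0.05, against 3.71%, and a median change of -0.13. Burn against excision gave 0 of 9 passed, against 0.209% of all genes, with 6 of 9 at an unadjusted p under 0.05 against 14.3% of all genes, and a median of -0.65. DESeq2 called 0 of 9 in both, with 0 genes called at large for excision against sham and 303 for burn against excision. In batch 1 alone burn against excision gave 7 of 9 at an unadjusted p under 0.05 in edgeR (19.1% of all genes) and 0 that passed after adjustment (1.05% of all genes). The contrasts share libraries, so they are not independent of each other.

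In frontal cortex, too, the low values sat in batch 1, but in both sham and burn libraries. Meg3 stood in batch 1 at 478, 1546, 957, 951 and 141 CPM in sham, at 531, 172, 399.9, 427 and 1205 CPM in burn and at 1897, 2283, 1353, 1806 and 1122 CPM in excision libraries. Every excision library was above 4 of the 5 sham and 4 of the 5 burn libraries. In batch 2 Meg3 stood at 1966, 1813 and 1096 CPM in sham, at 1477, 1481, 1552, 1551 and 1503 CPM in burn and at 1228, 1102, 1824, 1467 and 1246 CPM in excision libraries, all overlapping.

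Burn against sham in frontal cortex gave 0 of 9 passed in edgeR, against 0.28% of all 21077 genes, and 0 at an unadjusted p under 0.05, against 13%, with 8 of 9 lower and a median of -0.28. Excision against sham gave 0 of 9, against 0% of all genes, and 0 at an unadjusted p under 0.05, against 4.78%. All 9 were higher in batch 1 alone (0.23 to 1.30, 0 passed), 5 at an unadjusted p under 0.05 against 9.29% of all genes. In batch 2 alone all 9 were lower (-0.65 to -0.17). That batch has 3 sham libraries, and the titles of its burn libraries 7 and 8 and excision library 7 name another treatment. Batch 2 alone was not fitted without those libraries. Burn against excision gave 0 of 9, against 0.209% of all genes, with 3 at an unadjusted p under 0.05 (11.6% of all genes) and all 9 lower. DESeq2 called 0 of 9 in each of the 3, with 328, 0 and 175 genes called at large in the same order. Within batch 1 alone, Mirg and Neat1 were lower in burn than in excision, 2 of 9 against 4.28% of all genes lower.

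Mirg stood in these batch 1 libraries at 4.91, 2.56, 3.82, 4.56 and 13.0 CPM after burn and at 23.0, 30.6, 18.9, 22.2 and 15.4 CPM after excision, with no overlap (log2 change -1.95, edgeR adjusted p = 0.0254). Here too the share of all genes without overlap was not computed. Neat1 stood at 17.9, 14.0, 15.6, 13.2 and 30.4 CPM after burn and at 41.7, 38.9, 30.9, 37.5 and 27.0 CPM after excision, where 1 burn library overlapped (-0.96, adjusted p = 0.0419). In batch 2 alone burn against excision gave 0 of 9, against 0% of all genes in edgeR, and 0 at an unadjusted p under 0.05, against 2.24%. The change of the burn effect between batches gave 0 of 9 in frontal cortex, against 0% of all genes in edgeR, with Rian alone at an unadjusted p under 0.05 (-0.35), against 19.4% of all genes. The burn effect was lower in hippocampus than in frontal cortex for all 9 (median difference -0.51), with 0 of 9 passed in edgeR, against 0% of all genes, and 0 at an unadjusted p under 0.05, against 8.55%.

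Piriform cortex showed no contrast that passed for any of the 9. Meg3 stood at 2145, 2756, 1301, 2489 and 3764 CPM in sham, at 2230, 3336, 3069, 3087 and 1966 CPM in burn and at 1296, 1703, 2762 and 2151 CPM in excision libraries. The 3 groups overlapped. Burn against sham gave 0 of 9 in edgeR, against 0% of all 21004 genes, and 0 at an unadjusted p under 0.05, against 4.27% (median 0.04). Excision against sham gave 0 of 9, against 0% of all genes, with Malat1 and Neat1 at an unadjusted p under 0.05, against 5.25%. Burn against excision gave 0 of 9, against 0% of all genes, with Neat1 at an unadjusted p under 0.05, against 7.89%. DESeq2 called 0 of 9 in each, with 1, 2 and 59 genes called at large in the same order. Neat1 stood at 76.1, 37.8, 42.2, 41.4 and 72.2 CPM in sham, at 55.5, 61.8, 56.1, 60.4 and 45.6 CPM in burn and at 37.7, 31.7, 51.2 and 39.7 CPM in excision libraries. Its highest value belongs to sham library 1, which carries the dentate gyrus markers, and without that library 0 of 9 still passed in each contrast.

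Libraries of the same region, batch and treatment differed far more in 8 of these RNAs than in most genes. The standard deviation of log2 CPM between such libraries was 0.78 for Miat, 0.74 for Snhg11, 0.73 for Meg3, 0.64 for Mirg, 0.63 for Kcnq1ot1 and Malat1, 0.50 for Snhg14 and 0.42 for Neat1. The median over 12261 genes of at least 5 CPM was 0.19, and Neat1 lay above 95.2% and Miat above 99.4% of those genes. Rian, at 0.17, lay above 38.6%. Libraries with 4 or more RNAs over 1 log2 unit below their group mean were hippocampal sham library 1, hippocampal burn library 3 and frontal cortex sham library 5 (6 RNAs each) and frontal cortex burn library 2 (4 RNAs). Those with 4 or more above were frontal cortex burn library 5 (6 RNAs), hippocampal burn library 1 and frontal cortex sham library 2 (4 RNAs each). They all belong to batch 1.

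**Figure D3:**
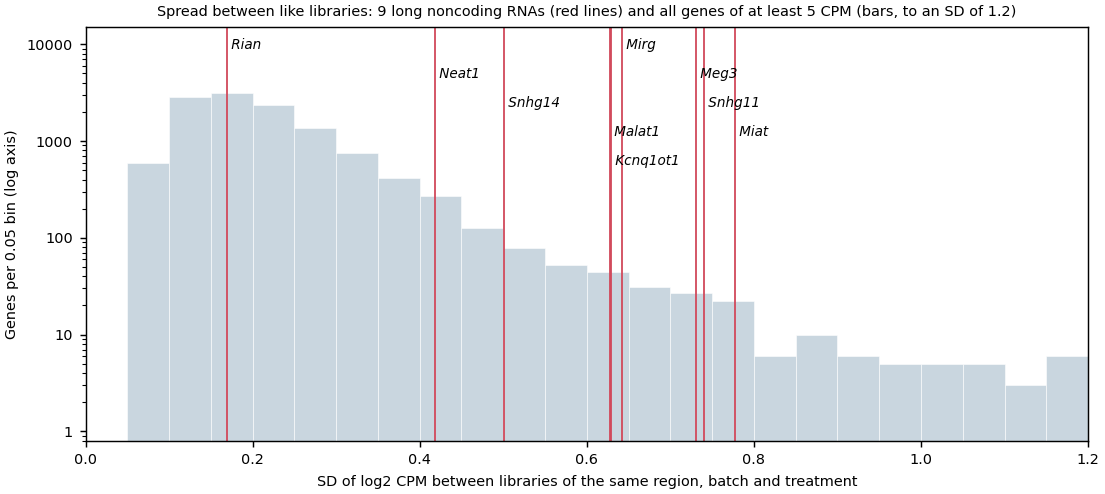
Number of genes (log axis) by the standard deviation of log2 CPM between libraries of the same region, batch and treatment, for genes of at least 5 CPM, with a red line at each of the 9 RNAs. Rian, at 0.17, sits near the centre of the distribution, and the other 8 lie from 0.42 to 0.78 in its right tail.

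The RNAs rose and fell together from library to library. After the mean of each region, batch and treatment was removed, all 36 pairs were positively correlated over the 71 libraries. Pearson's r ran from 0.318 to 0.993, and all 36 permutation p-values were under the threshold after adjustment. The same share over other gene pairs was not computed, so whether this count is particular to these RNAs was not tested. The closest genes outside these RNAs also followed Meg3, such as Gm27000 (r = 0.986) and Mir124a-1hg (r = 0.979). Meg3 and Snhg11, on different chromosomes, gave r = 0.993 and Spearman's rho = 0.985 (permutation p = 1e-05, the smallest that the permutations can give, adjusted 1.06e-05). The r was 0.991 without the 2 libraries farthest from the median and 0.889 to 0.999 within batches, with a slope of 1.01 log2 units of Snhg11 per log2 unit of Meg3. Meg3 and Miat gave r = 0.97 and Meg3 and Mirg r = 0.957, and within batches these were 0.714 to 0.995 and 0.635 to 0.985. Malat1 and Meg3 gave r = 0.884 and rho = 0.815 (0.851 without 2 libraries, 0.626 to 0.945 within batches).

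Rian shared the direction but little of the size. Meg3 and Rian, neighbours on chromosome 12, gave r = 0.622 and rho = 0.701 (permutation p = 1e-05, adjusted 1.06e-05), 0.618 without 2 libraries and 0.379 to 0.857 within batches. Rian moved by only 0.14 log2 units per log2 unit of Meg3. The weakest of the 36 pairs was Neat1 and Rian, at r = 0.318 and rho = 0.351 (permutation p = 0.00585, adjusted 0.00585), which ran from -0.0328 in piriform cortex to 0.671 in frontal cortex batch 1. Kcnq1ot1 followed Meg3 at r = 0.737, with 0.909 in hippocampus batch 2 but 0.109 in piriform cortex.

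**Figure D4:**
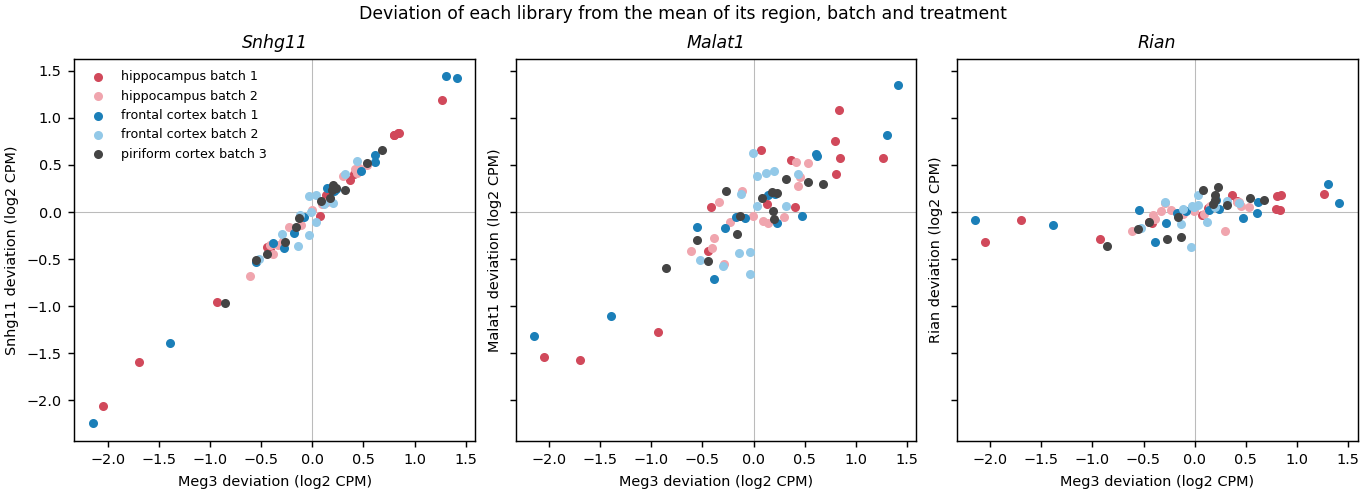
Deviation of each library from the mean of its region, batch and treatment, in log2 CPM, for Meg3 (horizontal axis) against Snhg11, Malat1 and Rian (vertical axes), 71 points per panel coloured by region and batch. Snhg11 follows Meg3 with a slope of 1.01 and Rian with a slope of 0.14.

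The genes whose pattern was most like each RNA, by Pearson's r of the same deviations over 71 libraries, are given here with no test. After Snhg11, Meg3 was most like the noncoding RNA Gm27000 (0.986) and Mir124a-1hg (0.979), the host transcript of a neuronal microRNA. Mir124a-1hg was likewise close to Snhg11 (0.989). Malat1 was closest to Mir5125 (0.886) and Trank1 (0.885), Neat1 to Dmpk (0.821), a kinase gene, and Mirg to Snhg11 (0.965) and Slc39a2 (0.964), a zinc transporter gene. Snhg14 was closest to Celsr3 (0.91), Stard9 (0.902) and Srrm2 (0.9), the last a core protein of nuclear speckles. Rian was closest to Dync1i2 (0.846), a dynein subunit gene, and Rbm25 (0.829), a splicing factor gene. Kcnq1ot1 was closest to 9330162G02Rik (0.903) and A230103L15Rik (0.902), both of the annotation's TEC class, unspliced models that await experimental support.

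With the mitochondrial share of a library, 1 RNA in 1 region moved past the threshold, and with its depth none did. In hippocampus 0 of 9 RNAs passed with mitochondrial share in edgeR, against 0.194% of all genes, and 0 had an unadjusted p under 0.05, against 13.2%. In batch 1 alone 0 of 9 passed, against 0.112%, but all 9 had an unadjusted p under 0.05, against 11%, with a median slope of 0.90 log2 units per percentage point. In batch 2 alone the median slope was -0.000928. In frontal cortex 0 of 9 passed, against 0.864% of all genes, and Neat1, Rian and Kcnq1ot1 had an unadjusted p under 0.05, against 16.8% (Kcnq1ot1 0.24 log2 units per percentage point, adjusted p = 0.121). In piriform cortex 1 of 9 passed, against 0.638% of all genes. This was Kcnq1ot1, at 0.22 log2 units per percentage point of mitochondrial share (SE 0.04, edgeR adjusted p = 0.0233).

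Piriform Kcnq1ot1 stood at 7.62 CPM in sham library 5, which had the lowest mitochondrial share at 3.47%, and at 22.1 CPM in sham library 1, which had the highest at 10.4%. The other libraries lay between 9.61 and 19.7 CPM. The slope was 0.19 (adjusted p = 0.0774) without sham library 1, the library with dentate gyrus markers, and 0.30 (adjusted p = 0.197) without sham library 5. With depth in the same fit it was 0.23 (adjusted p = 0.0527).

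For depth, 0 of 9 passed in hippocampus, frontal cortex and piriform cortex, against 0% of all genes in edgeR in each. At an unadjusted p under 0.05 there were 0, 0 and 3, the last being Malat1, Meg3 and Miat, lower in deeper piriform libraries, against 2.74, 5.24 and 5.43% of all genes. The 4 thinnest libraries did not stand together: Meg3 was at 304 and 369 CPM in 1 sham and 1 burn library of them and at 903 and 2169 CPM in the excision ones. Without these 4, a choice made after the data were seen, burn against sham in hippocampus gave 0 of 9 passed, against 0.992% of all genes, and Kcnq1ot1 at -1.10 (edgeR adjusted p = 0.0828).

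Within a region and batch, 90 correlations of an RNA with mitochondrial share or depth were computed, and 2 had an adjusted permutation p under the threshold. Treatment means were not removed here, so differences between the treatment groups enter these correlations and their p-values. Rian rose with mitochondrial share in hippocampus batch 1 (n = 14, r = 0.844, permutation p = 0.00024, adjusted 0.018, rho = 0.815, permutation p = 0.00068, adjusted 0.0612). Kcnq1ot1 did in piriform cortex (n = 14, r = 0.823, permutation p = 0.0004, adjusted 0.018, rho = 0.705, permutation p = 0.0061, adjusted 0.183). So neither passed by rank. Without the 2 libraries farthest from the median these were 0.813 and 0.543, and 0 of the 90 then passed. In hippocampus batch 1 all 9 RNAs correlated positively with mitochondrial share (r from 0.499 to 0.844), and in hippocampus batch 2 they ran from -0.229 to 0.158. Without the 2 farthest libraries all 9 were positive in both, from 0.262 to 0.813 in batch 1 and from 0.257 to 0.671 in batch 2. For depth r ran from -0.477 to 0.448 over all sets.

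The share of counts in TEC models was examined after the data were seen, as the class that held the closest genes of Kcnq1ot1, so its relation to Kcnq1ot1 in the same libraries restates that choice, and all values with it are descriptions. The 3214 TEC models took 0.0436 to 0.0926% of the counts, and none of the 9 RNAs is one of them. Per 0.01 percentage point of TEC share, all 9 rose in hippocampus and all 9 in frontal cortex, against 11.2% of all genes higher in each. In piriform cortex 7 of 9 rose, against 5.01%, and Neat1 (0.19, edgeR adjusted p = 0.191) and Kcnq1ot1 (0.13, adjusted p = 0.553) did not pass. Hippocampal slopes were 0.81 log2 units for Snhg11 and Meg3, 0.73 for Kcnq1ot1 and 0.12 for Rian. Within frontal cortex batch 2 alone 0 of 9 passed, against 0% of all genes in edgeR, with 7 at an unadjusted p under 0.05, against 10.1%. Without piriform sham library 3 the piriform count was 5, and 403 genes passed at large in either direction, against 1503 with it.

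In hippocampus batch 1, where TEC share ran from 0.0436 to 0.0858%, Kcnq1ot1 and TEC share correlated at r = 0.942 (14 libraries, rho = 0.969). The correlations with TEC share also had no treatment means removed, so they mix differences between treatments with those between like libraries. In hippocampus batch 2 this was 0.847 (15 libraries) and in piriform cortex 0.263 (14 libraries). Meg3 gave r = 0.878 and 0.947 in the hippocampal batches, 0.806 and 0.796 in the cortical ones and 0.976 in piriform cortex, and without 2 libraries 0.679 to 0.957. All 45 correlations, over the 5 sets of a region and batch and the 9 RNAs, were positive, and without the 2 farthest libraries they ran down to -0.0739 in frontal cortex batch 2. With TEC share as a covariate, burn against sham in hippocampus gave changes of -0.33 to 0.08 for the 9, in place of -1.03 to -0.03. In that fit 0 of 9 passed and 34 genes passed at large, against 202 without the covariate. TEC share was picked for its likeness to Kcnq1ot1 and rose with all 9 in hippocampus. Smaller changes therefore follow from that choice and are no test of the burn effect. TEC share is itself a share of the same counts as these RNAs, and what it stands for was not tested.

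**Figure D5:**
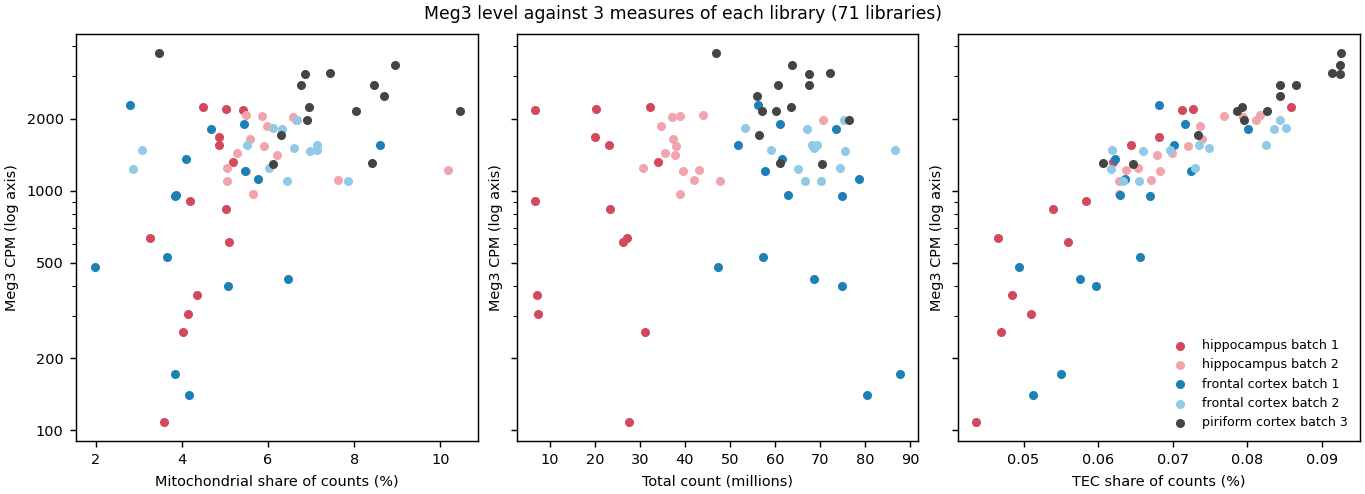
Meg3 level (CPM, log axis) in each of the 71 libraries against the mitochondrial share of counts, the total count and the TEC share of counts, coloured by region and batch. Meg3 is spread over all totals from 6652468 to 87775812, while it climbs with TEC share from 108 CPM at 0.0436% to 3764 CPM at 0.0926%.

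The proteins and neighbours of these RNAs were read in the same fits from lists chosen with earlier results of these data known. After burn in hippocampus, where 0.741% of all genes fell and 0.291% rose, 2 of 21 nuclear speckle protein genes fell and 0 rose. These were Acin1 (-0.42, SE 0.08) and Tra2a (-0.37, SE 0.08), both splicing factor genes with an edgeR adjusted p = 0.0146. All 21 were below 0, with a median of -0.23 against 0.01 for all genes. Of 18 paraspeckle protein genes, Pspc1, which encodes a core paraspeckle protein, rose (0.21, adjusted p = 0.0432) and Hnrnpm, a splicing regulator gene, fell (-0.21, adjusted p = 0.0362), with a median of -0.02. Against excision, Tra2a fell as well (-0.37, edgeR adjusted p = 0.0256), where 0.143% of all genes fell.

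Among the listed genes of the imprinted domains, 0 of 7 in Dlk1-Dio3, 0 of 9 tested in Snrpn-Ube3a and 0 of 9 tested in the Kcnq1 domain passed for burn against sham in hippocampus, with medians of -0.01, 0.08 and -0.01. Of 26 other long noncoding RNAs tested, 0 passed, 21 were lower and the median was -0.08. In frontal cortex and piriform cortex 0 genes of these lists passed in any treatment contrast. Across libraries, the mean of the speckle protein genes followed Meg3 (r = 0.779, rho = 0.795, permutation p = 1e-05, the smallest that the permutations can give, adjusted 6.6e-05 over 126 relations; 0.734 without 2 libraries; 0.414 to 0.945 within batches). The mean of the other long noncoding RNAs did so too (r = 0.795, rho = 0.742, permutation p = 1e-05, adjusted 6.6e-05; 0.713 without 2 libraries; 0.45 to 0.91 within batches). The Dlk1-Dio3 neighbours did not follow Meg3 past the threshold (r = -0.00439, permutation p = 0.968), and the neuron markers passed by rank but not by Pearson's r (r = -0.209, permutation p = 0.0816, adjusted 0.184; rho = -0.308, permutation p = 0.00868, adjusted 0.0296). Astrocyte markers (r = -0.337, permutation p = 0.00311, adjusted 0.0135; rho = -0.407, adjusted 0.00177) and oligodendrocyte markers (r = -0.335, permutation p = 0.00596, adjusted 0.0235; rho = -0.321, adjusted 0.0252) were lower in libraries with more Meg3. Choroid plexus markers passed by Pearson's r but not by rank (r = -0.296, permutation p = 0.0177, adjusted 0.0496; rho = -0.262, adjusted 0.0806). Without 2 libraries these r were -0.221, -0.338, -0.351 and -0.199, in the order neuron, astrocyte, oligodendrocyte and choroid plexus, and within batches they ran from -0.809 to 0.0623. The part of these cell types in the RNA levels was not tested. With TEC share, 16 of 21 speckle protein genes rose in hippocampus, 18 of 21 in frontal cortex and 13 of 21 in piriform cortex, against 11.2, 11.2 and 5.01% of all genes.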

How the data were processed

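The authors deposited 1 table of whole-number gene counts for 71 libraries, and each library's group was taken from its treatment field, region and batch. GRCm38 is the build, and STAR, fastp, DESeq2 1.24.0 and FastQC 0.11.3 are the tools, listed in the submitters' processing notes. No source used here gives the counting tool, the annotation release or the strand setting. Symbols and exon lengths came from GENCODE M21, which matched 52083 of 55416 identifiers, and 2147 identifiers are of a later series than that release, so levels per kilobase are approximate for the authors' gene models.

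Counts were scaled by TMM and tested in R 4.3.3 with edgeR 4.0.16 (quasi-likelihood F test, filterByExpr, Benjamini-Hochberg adjustment over all genes, threshold 0.05), with all 3 treatments of a region in 1 fit and batch as a term where a region has more than 1. "Passed" means an adjusted p under 0.05 in that fit, and log2 changes are its estimates. CPM use TMM-scaled library sizes, and correlations use log2 CPM with a prior count of 2 and two-sided permutation tests with 100000 resamples. Totals per library are given with the results and set the counting precision. DESeq2 1.42.0, other scalings, filters, covariates and left-out libraries were tried as alternatives. In simulated counts for burn against sham in hippocampus, edgeR called 45 of 50 genes changed 2-fold. Those genes were drawn at random, and most of these RNAs varied more between libraries than most genes. How often changes in these 9 would be called was therefore not tested. All 9 RNAs are named in each comparison, called genes of the lists by smallest p, at most 5 a list, and the 3 most similar genes by r. The members and lists were chosen with earlier results of these data known, and TEC share, the region markers and fits of batch 1 without a sham library were added after seeing the data.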

Additional observations from a re-analysis of the deposited data

Results flagged for a closer look

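Rian in the frontal cortex burn group had 1 library far from the others. Burn library 6 stood at 277 CPM, and the nearest of the other 9 burn libraries at 350.0 CPM, a gap of 0.54 of the group's whole range (n = 10). The same library was not low in the other RNAs of the Dlk1-Dio3 domain, with 1477 CPM of Meg3 and 23.8 CPM of Mirg, the latter the highest Mirg level among the 10 burn libraries of frontal cortex. It was lowest of the 5 batch 2 burn libraries in Malat1, at 94.7 CPM, and in Snhg14, at 38.1 CPM. This was 1 of 81 groups of a gene, region and treatment tested in this way, and chance alone flags about 1 in 20.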

How the results depend on the processing

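Of 775 alternatives to the 25 counts reported, 759 left the count within 1.5 times its reported value. Of 6921 alternatives for single RNAs 0 reversed a called direction, but only a result that passed as reported could be counted as reversed. Among results that had not passed, signs did change. This held in 34 of 207 alternatives for burn against sham in piriform cortex and 34 of 402 between hippocampus and frontal cortex. For burn against sham in hippocampus it was 4 of 396, and for excision against sham 22 of 396. For burn against sham in hippocampus the count of 0 became 1 with DESeq2's Wald test and 7 in batch 1 alone (8 there without sham library 1 and 3 without sham library 3), and ran from 0 to 2 with 1 library left out. For burn against excision in hippocampus it became 6 in batch 1 alone without sham library 1, where 883 genes passed at large. For burn against excision in frontal cortex it became 2 in batch 1 alone. The piriform count of 1 for mitochondrial share became 0 with depth in the same fit and ran from 0 to 1 with 1 library left out. The count for TEC share in frontal cortex became 0 in batch 2 alone, and that in piriform cortex ran from 5 to 7. The burn effect by batch in hippocampus ran from 0 to 6. Correlations with mitochondrial share and depth became 0 without the 2 libraries farthest from the median. The cause of these shifts was not tested. Sample numbers in the titles gave no clear pairing. Over 63 same-numbered pairs the median correlation of deviations was 0.029, and 23 exceeded 0.1, against -0.00106 and 90 of 241 for other pairs. With the title number as a replicate block 0 of 9 passed in each of the 9 treatment contrasts, and the genes called at large went from 202 to 169 for burn against sham in hippocampus and from 59 to 0 in frontal cortex. Library name numbers, compared across hippocampus and frontal cortex within a batch, gave a median of 0.107 over 27 same-numbered pairs, 15 above 0.1. Other pairs gave -0.0172, with 128 of 378 above 0.1. With the library name number as a block, 3 of 9 still passed between the regions, and 13113 genes at large against 13267. The labels do not say whether these numbers mark shared animals. The genes called at large for burn against sham in hippocampus, 202 as reported, were 629 with DESeq2, 123 with no count filter, 106 with no batch term, 34 with TEC share as a covariate, 1324 in batch 1 alone and 31 in batch 2 alone. For burn against sham in frontal cortex, 59 became 328 with DESeq2 and 24 with no count filter. Depth limits Kcnq1ot1 most, with 28 counts in its thinnest library, and intervals from counts would cover counting error only.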

Other observations

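Of 26 other long noncoding RNAs tested between hippocampus and frontal cortex, 11 were higher in hippocampus and 5 lower in edgeR, where 28.3% and 33.1% of all genes passed in these directions. By smallest p these were Peg13, an imprinted RNA, lower in hippocampus by a log2 difference of -0.42, Pvt1 (0.53) and Gas5 (0.48), a small nucleolar RNA host gene, both higher, Dlx6os1, which is transcribed beside interneuron regulators, lower (-1.07), and A330008L17Rik, higher (0.80). The GABAergic markers Gad1 (-0.94) and Gad2 (-1.07) were lower in hippocampus as well. Neuron markers as a list were lower there for 5 of 7, and oligodendrocyte markers higher for 2 of 7. The paraspeckle protein genes split, with 2 of 18 higher in hippocampus, Taf15 (0.23) and Hnrnpm (0.15), and 5 lower, among them Nono (-0.12) and Sfpq (-0.25), which encode core paraspeckle proteins, while Neat1 was higher there.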
